A study of Mus musculus with 6 samples.

Results

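The axon guidance genes described here are the semaphorins of classes 3 to 7 with their plexin and neuropilin receptors, the ephrins with their Eph receptors, the Slits with their Robo receptors, and the netrins with the Unc5 receptors. They were chosen by gene symbol among the protein-coding genes of the deposited table, with no measured value in the rule, which gave 70 of 25904 genes, of which 18758 are protein-coding. All but 2 belong to these families. Unc50 and Unc5cl match by symbol only: neither encodes a netrin receptor, and they are counted but kept apart.

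Guidance cues are secreted or membrane-bound proteins that attract or repel growing axons and migrating cells through receptors on the responding cell. Class 3 semaphorins are secreted and act mostly through neuropilins paired with A plexins, whereas the other vertebrate classes are membrane-bound and act on plexins more directly. Ephrins signal between touching cells, with A ephrins held by a lipid anchor and B ephrins spanning the membrane. In embryos the same families also act outside the nervous system, in blood vessels, in epithelia and in the early germ layers.

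RNA was sequenced from mouse F9 cells, a teratocarcinoma line that resembles the early embryo's undifferentiated cells and turns towards extraembryonic endoderm in retinoic acid (RA). The cells carried a short hairpin RNA against GFP (shGFP, the control), against Ctbp2 (shCtbp2), which encodes a transcriptional corepressor, or against the retinoid X receptor (shRxr), the partner of the RA receptors. Each line was harvested untreated or after 48 hours in 1 µM all-trans RA, and all grew in medium with charcoal-stripped serum. This gave 6 groups of 1 library each. The labels name no replicate culture and do not say whether a line is a clone or a pool. The 3 lines therefore stand in as replicates of the treatment, and p-values measure only the spread between these libraries. In bulk RNA, fewer cells of a type and less RNA per cell cannot be told apart.

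Depth was 9955808 to 13322506 reads in genes per library. Levels below are normalised reads, meaning reads per 10000000 reads in genes, so that 1 read is worth 0.7506 to 1.004. Ctbp2 stood at 210.1 and 55.4 in the untreated and RA libraries of shCtbp2, against 1811 and 701 in shGFP. Rxra stood at 73.7 and 82.4 in shRxr against 520.3 and 805. Endoderm markers rose with RA (13 of 15 tested; summed level 14645 to 18234 untreated and 24990 to 44861 in RA), and 5 of 12 pluripotency markers fell. The summed pluripotency level was 66198 to 69214 untreated and 30759, 66237 and 51626 in shGFP, shCtbp2 and shRxr with RA. The sum was thus lower in shGFP and shRxr but not in shCtbp2, where the markers split. In shCtbp2 the abundant Pou5f1 (18524 untreated, 26185 in RA), Esrrb (8166, 11719) and Dppa5a (4940, 8488) were higher with RA. Zfp42 (8730, 2129), Sox2 (4616, 1597), Tdgf1 (2261, 594) and Lin28a (2323, 958) were lower there. Neuron markers did not move beyond the test in any of 8 genes (sums of 2206 to 2729 and 1927 to 2903). Of 7 endothelial markers only Cdh5, the endothelial cadherin, was called raised (log2 change 2.30, adjusted p = 0.00045, limma). The summed endothelial level was 1277 to 1367 untreated and 875 to 1202 in RA. Its largest part was Pecam1, at 987, 1158 and 1011 in untreated shGFP, shCtbp2 and shRxr and 408, 719 and 839 in RA. The sum therefore does not show how the other endothelial markers moved. The part of these cell types in the results below was not tested.

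RA raised 20 guidance genes over the lines and lowered 3. Those with the largest increase were the receptor genes Plxna2 and Nrp1, the ephrin gene Efnb1 and the membrane semaphorin genes Sema6a and Sema4c; Ntn1, Sema5b and Nrp2 fell. Changes here are on the scale log2(normalised reads + 10), which understates the change of low genes, and were tested with limma over all 6 libraries with line and treatment as terms, at an adjusted p of 0.05. Of the 70 genes, 54 reached the mean of 20 normalised reads needed for the test. The 20 raised genes are 37% of these, against 10.8% of all 12332 genes tested, and the 3 lowered genes are 5.56%, against 4.63%. The median log2 change of the 54 was 0.53, against 0.07 for all genes tested. The minimum itself favours genes that rise: 9 of the 54 had an untreated mean under 20, and 5 of those were among the raised, so the share is a description and not evidence about the families.

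All 23 called genes moved in the same direction in each of the 3 lines, and for 19 of the 20 raised and all 3 lowered the RA libraries did not overlap the untreated ones. The exception was Unc5b. The test takes the difference between lines in RA response as its error, so agreement over lines goes into the call itself. It is a description of the called genes and not separate evidence. Over all 54, 24 had every RA library above every untreated one and 5 every RA library below, against 24.1% and 13.9% of all genes tested. The calls depended on the lines kept: without the shGFP line 6 genes were raised (Efnb1, Nrp1, Plxna2, Sema4c, Sema6a and Sema7a) and 0 lowered. Without the shCtbp2 line it was 8 and 3, and without the shRxr line 23 and 3. A fit with fewer libraries rests on less data for every gene, and the spread it measures changes with the lines kept. The share of all genes called is not given for these fits or for the GC correction below. A loss or gain of calls over all genes therefore cannot be told apart from one particular to the guidance genes. The libraries also differ in their dependence on GC content: the Spearman correlation across genes of a library's deviation with GC was -0.46 to -0.41 in the untreated libraries and in shRxr with RA, 0.25 in shGFP with RA and 0.68 in shCtbp2 with RA. The guidance genes tested had a median GC of 56.3%, against 50.6% for all. After a correction for GC, 19 were raised and 5 lowered, of which 18 and 3 are the same genes; Unc5b dropped out, Ntn3 had no GC value, and Epha7 (raised), Plxnb1 and Plxnb2 (lowered) were added.

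**Figure D1:**
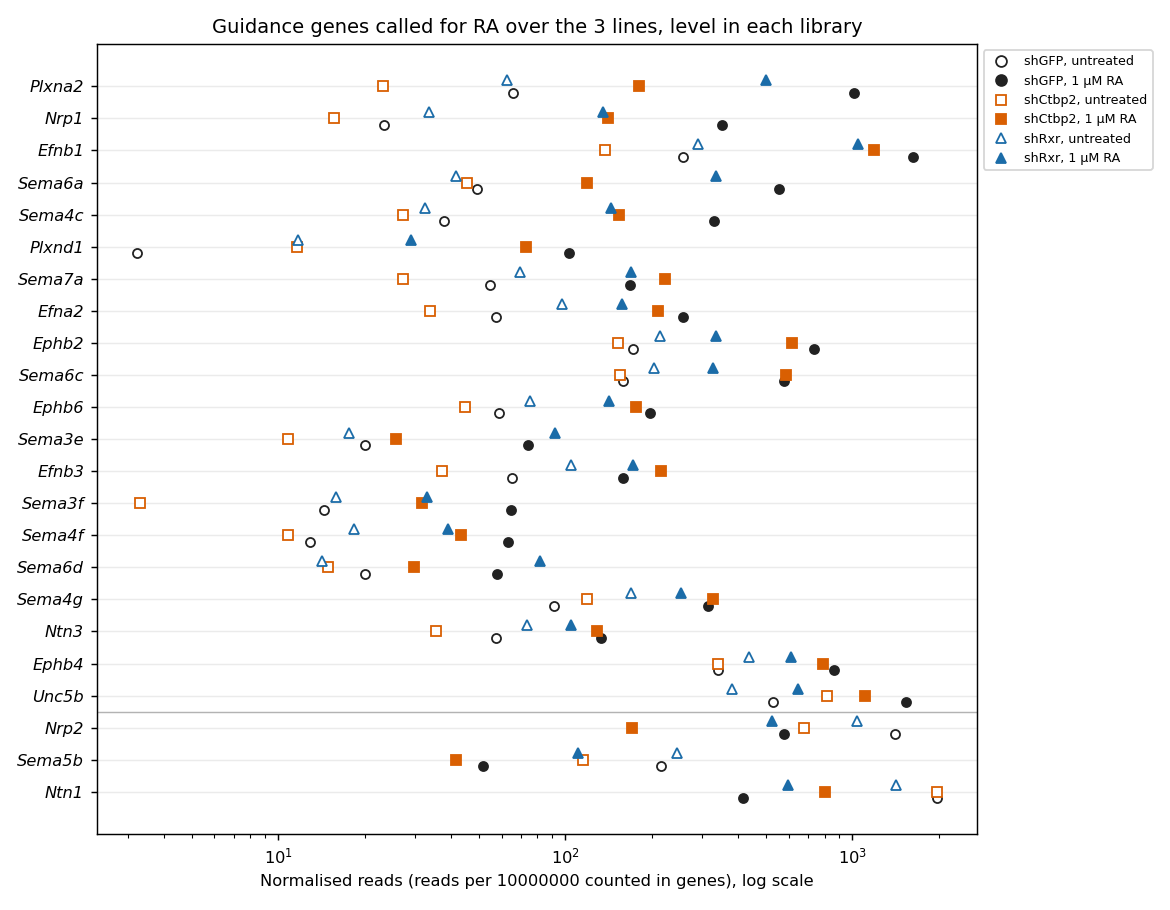
Level of the 23 guidance genes called for RA in each of the 6 libraries, in normalised reads on a log axis; open symbols are untreated, filled symbols are RA, and shape and colour give the line. The upper 20 genes were raised and the lower 3 lowered, and among the raised only Unc5b has an RA library (shRxr) to the left of an untreated one (shCtbp2).

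The plexins and neuropilins, the receptors of the semaphorins, held the largest changes. Plxna2, which encodes an A plexin that serves class 3 semaphorins with a neuropilin and class 6 semaphorins without one, stood at 66, 23.2 and 62.8 normalised reads in untreated shGFP, shCtbp2 and shRxr and at 1015, 180.1 and 500.2 in RA. The lowest RA library, shCtbp2, was still above the highest untreated one. This is 15.4-fold in shGFP (95% interval from the reads 12.3 to 19.4), 7.78-fold in shCtbp2 (5.21 to 12) and 7.97-fold in shRxr (6.24 to 10.3); such intervals cover counting error only. Over the lines the log2 change was 3.03 (SE 0.31, adjusted p = 5.9e-05, limma).

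Nrp1, the neuropilin that binds Sema3a-type semaphorins and is also a co-receptor of VEGF, stood at 23.4, 15.7 and 33.5 untreated and at 351, 141 and 135 in RA (shGFP, shCtbp2, shRxr, the order kept below). All RA libraries lay above the untreated ones, with shGFP far above the other lines. The fold was 15 in shGFP (10.3 to 22.7), 8.94 in shCtbp2 (5.52 to 15.3) and 4.02 in shRxr (2.81 to 5.88), and the log2 change over the lines 2.57 (SE 0.34, adjusted p = 0.00037, limma). Nrp2, the neuropilin of Sema3f-type semaphorins, went the other way, from 1404, 676 and 1038 untreated to 576, 170.2 and 523 in RA. Again the treatments did not overlap, and shCtbp2 was the lowest line at both. Its log2 change was -1.39 (SE 0.28, adjusted p = 0.0048, limma). Per kb of exons, Nrp1 made up 1.97%, 2.74% and 3.76% of the summed neuropilin level in the untreated lines and 42.4%, 50% and 23.7% in RA, so that the neuropilin RNA moved from almost all Nrp2 to a mixture.

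Plxnd1, the plexin known from vessel patterning as the receptor of Sema3e, rose from 3.22, 11.6 and 11.7 untreated to 103, 73.2 and 29.1 in RA (log2 change 1.96, SE 0.39, adjusted p = 0.0046, limma). The untreated shGFP level rests on few reads, and its 31.9-fold change has an interval of 12.2 to 119; shCtbp2 gave 6.32-fold (3.54 to 12.1) and shRxr 2.49-fold (1.27 to 5.09). The other 6 plexins tested were not called. Plxna1, the most abundant plexin per kb, stood at 2899, 2376 and 3173 untreated and 4712, 3415 and 3727 in RA (log2 change 0.48, adjusted p = 0.22, limma). Plxna2 was 1.19%, 0.511% and 1.03% of the summed per-kb level of Plxna1 and Plxna2 untreated and 10.2%, 2.71% and 6.61% in RA, so Plxna1 remained the major of the pair in every library. Plxnb1, a receptor of Sema4d, and Plxnb2 were lower with RA in all 3 lines (log2 changes -0.64 and -0.36, adjusted p = 0.13 and 0.37, limma) and passed the test after the GC correction. Plxna3 stood between 92 and 182 in all libraries, Plxna4 between 18 and 68.3 and Plxnc1, the receptor of Sema7a, between 15.8 and 39.

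**Figure D2:**
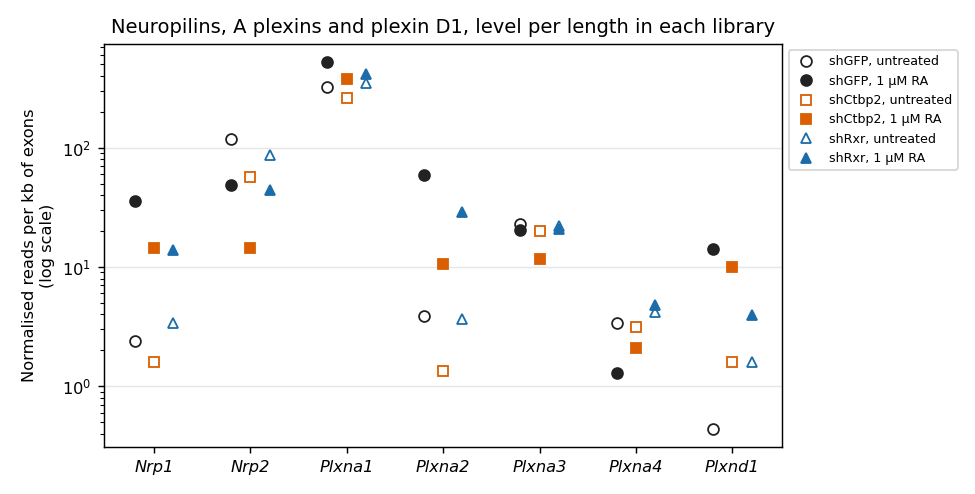
Normalised reads per kb of exons, on a log axis, for the 2 neuropilins, the A plexins and plexin D1 in each library (open, untreated; filled, RA). Nrp1, Plxna2 and Plxnd1 lie higher in RA in every line, Nrp2 lies lower, and Plxna1 stays the most abundant of these genes in all 6 libraries.

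The promoters of 4 of the genes with the largest increase are shown because RA receptors bind as dimers to repeated core motifs. The windows are RefSeq's, on GRCm38.p6, 300 bases long with most of them before the start of the gene; capitals mark a core motif. The search covered both strands. The classical core motif of nuclear receptors reads AGGTCA, which appears in the windows below as its reverse complement. A variant of it that begins with another base, GGGTCA, was also counted. So were the variant that differs at the third base, written AGTTCA, and the one that combines both differences and is therefore written GGTTCA. Plxna2 is chr1:194619579-194619878 (+), Nrp1 chr8:128358823-128359122 (+), Efnb1 chrX:99135811-99136110 (+) and Plxnd1 chr6:115994956-115995255 (-).
Plxna2: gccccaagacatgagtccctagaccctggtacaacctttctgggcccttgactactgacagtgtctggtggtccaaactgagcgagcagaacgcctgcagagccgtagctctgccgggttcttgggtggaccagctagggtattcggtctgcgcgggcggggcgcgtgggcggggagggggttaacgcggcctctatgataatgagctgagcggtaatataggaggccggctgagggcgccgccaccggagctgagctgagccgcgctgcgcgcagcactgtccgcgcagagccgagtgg
Nrp1: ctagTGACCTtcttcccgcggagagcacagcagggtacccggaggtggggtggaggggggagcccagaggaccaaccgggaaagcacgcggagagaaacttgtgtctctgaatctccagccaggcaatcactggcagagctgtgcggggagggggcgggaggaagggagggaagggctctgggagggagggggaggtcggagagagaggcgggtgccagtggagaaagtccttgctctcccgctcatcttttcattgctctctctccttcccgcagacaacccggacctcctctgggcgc
Efnb1: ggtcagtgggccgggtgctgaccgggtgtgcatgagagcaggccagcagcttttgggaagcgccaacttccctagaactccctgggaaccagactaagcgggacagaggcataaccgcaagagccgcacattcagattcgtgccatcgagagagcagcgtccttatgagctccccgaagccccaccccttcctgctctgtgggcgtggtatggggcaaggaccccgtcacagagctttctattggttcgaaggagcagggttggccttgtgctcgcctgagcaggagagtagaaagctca
Plxnd1: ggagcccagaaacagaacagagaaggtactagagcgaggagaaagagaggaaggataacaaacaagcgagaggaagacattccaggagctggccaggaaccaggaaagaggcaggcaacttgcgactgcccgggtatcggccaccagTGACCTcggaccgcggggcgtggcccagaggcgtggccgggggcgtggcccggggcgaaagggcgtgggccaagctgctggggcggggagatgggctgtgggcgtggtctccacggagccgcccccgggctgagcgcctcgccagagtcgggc
Nrp1 and Plxnd1 each hold 1 core motif, Plxna2 and Efnb1 hold 0, and the RefSeq windows of Sema4c also hold 0. Of the 77 windows found for 61 of the 70 genes, 23 (29.9%) hold a core motif, against 43.7% of all 32851 windows in the table. For the raised genes it was 6 of 20 windows (30%), from 17 genes. A direct repeat of 2 core motifs with 1, 2 or 5 bases between them was in 0 of the 77 windows and in 0.588% of all. These are matches of letters in a short window, and no binding was measured.

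Among the semaphorins RA raised 9 genes in 4 classes and lowered 1. The class 6 genes, whose membrane-bound proteins act on A plexins, held 3 of the 9. Sema6a stood at 49.1, 45.5 and 41.8 untreated and at 554, 119 and 336 in RA. The untreated lines were close to each other, and shCtbp2 was the lowest in RA, at 2.61-fold (1.88 to 3.66) against 11.3-fold (8.68 to 14.9) in shGFP and 8.04-fold (5.96 to 11.1) in shRxr. The log2 change over the lines was 2.40 (SE 0.36, adjusted p = 0.00088, limma). Sema6c rose from 159, 155 and 203 to 576, 585 and 326 (log2 change 1.44, adjusted p = 0.0066, limma), with the shRxr RA library nearest to the untreated ones. Sema6d rose from 20.1, 14.9 and 14.2 to 57.8, 29.7 and 81.4 (1.25, adjusted p = 0.02), and there shRxr was the highest. Sema6b split by line: it was 2.25-fold higher with RA in shGFP and 3.99-fold higher in shCtbp2, but 1.19-fold lower in shRxr (interval 0.797 to 1.78), and was not called.

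Class 4 semaphorins, membrane proteins that mostly act on B plexins, gave 3 calls of 6. Sema4c stood at 37.9, 27.3 and 32.6 untreated and 329, 154 and 144 in RA, which is 8.69-fold (6.42 to 12), 5.66-fold (3.87 to 8.5) and 4.4-fold (3.07 to 6.44). No line overlapped, and the log2 change was 2.27 (SE 0.30, adjusted p = 0.00037, limma). Sema4f rose from 12.9, 10.8 and 18.4 to 63.1, 43.5 and 39.2, and Sema4g from 91, 119 and 169.9 to 314, 327 and 253 (log2 changes 1.28 and 1.20, adjusted p = 0.015 and 0.016, limma). Sema4b, by far the most abundant semaphorin per kb with a mean of 392, was not called, at 1604, 1768 and 1976 untreated and 1943, 3616 and 2386 in RA. Sema4a (114 to 203) and Sema4d (329 to 480.4) were not called. In shRxr they were 1.48-fold (1.17 to 1.88) and 1.35-fold (1.17 to 1.55) lower with RA. Sema4d was 1.17-fold higher in both shGFP and shCtbp2, and Sema4a was 1.14-fold lower in shGFP and 1.03-fold higher in shCtbp2.

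The secreted class 3 semaphorins were low. Sema3e, the ligand of Plxnd1, rose from 20.1, 10.8 and 17.6 to 74.3, 25.7 and 92.4 (log2 change 1.39, SE 0.32, adjusted p = 0.011, limma), and Sema3f, a ligand of Nrp2, from 14.5, 3.31 and 15.9 to 64.6, 31.7 and 33.1 (1.33, SE 0.32, adjusted p = 0.014). In both the treatments did not overlap. Ligand and receptor thus moved together for Sema3e and Plxnd1 and in opposite directions for Sema3f and Nrp2. Sema3b, the most abundant of the class per kb, stood at 38.7 to 86.9 untreated and 68.3 to 119.8 in RA, with overlap, and Sema3c at 6.93 to 35.2. Sema3a, Sema3d and Sema3g were at 8.04 or less in every library and were not tested.

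Sema7a, the one semaphorin held by a lipid anchor, rose from 54.8, 27.3 and 69.5 to 168, 222 and 169.8 (log2 change 1.76, SE 0.33, adjusted p = 0.0031, limma); here shCtbp2 had the lowest untreated and the highest RA level, an 8.12-fold change (5.62 to 12.1). Sema5b, a membrane semaphorin with thrombospondin repeats, was the only semaphorin to fall, from 215, 115 and 245 to 51.8, 41.6 and 111 (log2 change -1.40, SE 0.29, adjusted p = 0.006, limma). Its highest RA library, shRxr, lay just under its lowest untreated one, shCtbp2. Sema5a was 2.61-fold higher with RA in shGFP (1.63 to 4.3), 2.19-fold in shCtbp2 (0.744 to 7.22) and 1.16-fold in shRxr (0.656 to 2.04), and was not called.

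The calls among the ephrins and their receptors differed by subfamily: 2 of 3 B ephrins and 3 of 4 EphB genes tested were raised. On the A side it was 1 of 4 ephrins and 0 of 4 EphA genes. These counts hang on the threshold, which Efna1 (log2 change 0.92, adjusted p = 0.057, limma) and Epha2 (0.79, adjusted p = 0.055) just missed. They do not show that the A genes did not rise, and the difference between subfamilies was not tested. Efnb1 stood at 257, 138 and 290.4 untreated and at 1630, 1194 and 1045 in RA, with a wide gap between treatments. This is 6.34-fold (5.64 to 7.16), 8.64-fold (7.34 to 10.2) and 3.6-fold (3.18 to 4.07), and the log2 change was 2.48 (SE 0.29, adjusted p = 0.00017, limma). Efnb3 rose from 65.2, 37.2 and 105 to 159, 215 and 172 (1.36, adjusted p = 0.014). Efnb2, the B ephrin known from arteries, was not called: it was 1.63-fold higher with RA in shGFP (1.41 to 1.89) and 1.44-fold in shRxr (1.15 to 1.81), but 2.02-fold lower in shCtbp2 (1.55 to 2.66). Per kb, Efnb1 exceeded Efnb2 by 2.21, 1.74 and 4.66 times untreated and by 8.59, 30.3 and 11.6 times in RA.

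Of the EphB receptors, which bind B ephrins, Ephb2 rose from 172, 153 and 214 to 734, 616 and 336 (log2 change 1.53, SE 0.32, adjusted p = 0.0058, limma). Ephb6, which lacks kinase activity, rose from 58.8, 44.7 and 75.3 to 197, 177 and 142 (1.40, adjusted p = 0.0071), and Ephb4, the receptor of Efnb2 in veins, from 341, 341 and 435 to 862, 791 and 609.7 (0.99, adjusted p = 0.028). In all 3 genes the untreated and RA libraries separated, with shRxr nearest to the middle on both sides. Ephb4 overlaps Zan in the annotation, and the strand setting of the counting is not given in the sources used here, but Zan itself was at 13.5 to 78.3. Ephb3, the most abundant EphB gene per kb, stood at 867, 1277 and 905 untreated and 1115, 2324 and 927 in RA and was not called.

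Efna2 was the one A ephrin called, from 57.2, 33.9 and 97.1 to 257, 211 and 157 (log2 change 1.65, SE 0.34, adjusted p = 0.0058, limma). Efna1 just missed, at 10.9 to 14.1 untreated and 26.1 to 36.8 in RA with no overlap (log2 change 0.92, adjusted p = 0.057, limma). Efna4, the most abundant A ephrin per kb, ranged from 136 to 278, and Efna3 from 41.4 to 84.6, with treatments mixed. Epha2, the most abundant Eph gene per kb, stood at 1045, 1001 and 1209 untreated and 1816, 2112 and 1722 in RA; all RA libraries were higher, but the test was missed (0.79, adjusted p = 0.055). Epha4, a receptor of both ephrin subfamilies, was level with RA in shGFP (1061 and 1034) and 1.2-fold higher in shRxr, but 3.47-fold lower in shCtbp2 (3.16 to 3.82). Epha1 was 2.33-fold higher with RA in shGFP (1.77 to 3.09), 1.84-fold higher in shCtbp2 and 1.18-fold lower in shRxr (interval 0.768 to 1.84); it overlaps Zyx, which stood at 56.2 to 579, so its reads are uncertain. Epha7 stood at 39.7 to 90.4 untreated and 46.5 to 161 in RA.

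Ntn1, the classical netrin, was the most abundant netrin per kb and fell from 1978, 1978 and 1423 to 415, 805 and 597. The log2 change was -1.58 (SE 0.28, adjusted p = 0.0024, limma), with no overlap, and most in shGFP, where it was 4.77-fold lower (4.34 to 5.24). Unc5b, a netrin receptor known from vessels, rose from 529, 815 and 382 to 1533, 1108 and 649 (0.90, SE 0.28, adjusted p = 0.047). The shRxr RA library lay below the untreated shCtbp2 library, the change was near the threshold, and with the GC correction it was 0.52 and no longer called. Ntn3 rose from 57.2, 35.6 and 73.7 to 133, 129 and 105 (1.05, adjusted p = 0.035), but it lies in an overlap with Tbc1d24, at 367 to 784, and is uncertain for that reason. Unc5a (12.1 to 33.7) was not called.

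Slits and Robos gave no call: of 3 Slit and 3 Robo genes tested, 0 passed in either direction. Robo1 was lower with RA in every line, from 666, 645 and 659.5 to 466, 254 and 582 (log2 change -0.66, adjusted p = 0.14, limma). Robo4, a Robo known from endothelium and the most abundant Robo per kb, stood at 469, 491 and 573 untreated and 402, 1184 and 737 in RA; only the shCtbp2 library with RA stood well above the rest. Slit1 was 2.55-fold higher with RA in shGFP (1.7 to 3.9) and within counting error in the other lines (intervals 0.701 to 2.44 and 0.641 to 1.77). Slit2 (34.6 to 139.6) was lowest in both shCtbp2 libraries, and Slit3 (65.3 to 99.8) varied little. Robo3, which makes axons insensitive to Slit before they cross the midline, stood at 12.9 to 40.2.

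The 16 genes under the minimum were Efna5, Epha3, Epha5, Epha6, Epha8, Epha10, Ephb1, Ntn4, Ntn5, Plxnb3, Robo2, Sema3a, Sema3d, Sema3g, Unc5c and Unc5d. Of these, 6 had no read in at least 1 library. Ephb1 was higher in every RA library, at 2.42, 0.827 and 1.67 untreated and 11.3, 6.93 and 10 in RA, and Unc5c, a netrin receptor, at 0.805, 0 and 0 against 5.25, 2.97 and 4.02, all on few reads. Unc5d reached 34.5 in shGFP with RA and 14.1 or less elsewhere. Robo2 reached 31.1 in shRxr with RA. Of the genes matched by symbol only, Unc50 stood at 386 to 417 untreated and 493 to 611 in RA and Unc5cl at 10.8 to 39.6, and neither was called.

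Within single lines there is no replicate and no test, and genes were counted when they differed at least 2-fold on the log2 scale. In shGFP 26 guidance genes were higher with RA and 4 lower, against 13.4% and 7.07% of all genes tested; in shCtbp2 22 and 5, against 15.1% and 19.3%; in shRxr 8 and 2, against 5.26% and 1.46%. The share of the 54 genes that was higher was 48.1%, 40.7% and 14.8%, and the median log2 change 0.81, 0.63 and 0.34, against 0.12, 0.07 and 0.09 over all genes. With the GC correction the counts were 17 and 4 in shGFP, against 12% and 4.79% of all genes, 12 and 8 in shCtbp2, against 9.56% and 8.95%, and 8 and 2 in shRxr, against 5.33% and 1.43%. Scaling by median of ratios moved the median of all genes in shGFP from 0.12 to 0.01 and in shRxr from 0.09 to -0.03. It moved the guidance genes' median in shGFP from 0.81 to 0.71 and their count there from 26 to 19 higher, against 11.7% of all genes.

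The order of the genes differed between the lines. In shGFP the largest responses were Plxna2 (3.75), Nrp1 (3.44), Sema6a (3.25), Plxnd1 (3.09) and Sema4c (2.82), and the lowest Ntn1 (-2.23), Sema5b (-1.86), Nrp2 (-1.27) and Plxna4 (-1.04). In shCtbp2 they were Efnb1 (3.02), Sema7a (2.64), Nrp1 (2.55), Plxna2 (2.52) and Efna2 (2.33), and the lowest Nrp2 (-1.93), Epha4 (-1.78), Robo1 (-1.31), Ntn1 (-1.29) and Sema5b (-1.28). In shRxr they were Plxna2 (2.81), Sema6a (2.74), Sema6d (1.91), Sema3e (1.89) and Sema4c (1.85), and the lowest Ntn1 (-1.24) and Sema5b (-1.07). Plxna2 was among the 5 highest in all 3 lines. Of the 20 genes raised over the lines, the response was largest in shGFP for 10, in shCtbp2 for 8 and in shRxr for 2 (Sema3e and Sema6d). It was smaller in shRxr than in shGFP for 18 and smaller in shCtbp2 than in shGFP for 12. Over all genes tested, 13.4%, 15.1% and 5.26% were at least 2-fold higher with RA in shGFP, shCtbp2 and shRxr. The same counts for all raised genes are not given, so these are no result about the guidance genes. The part of GC content in them was not tested.

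**Figure D3:**
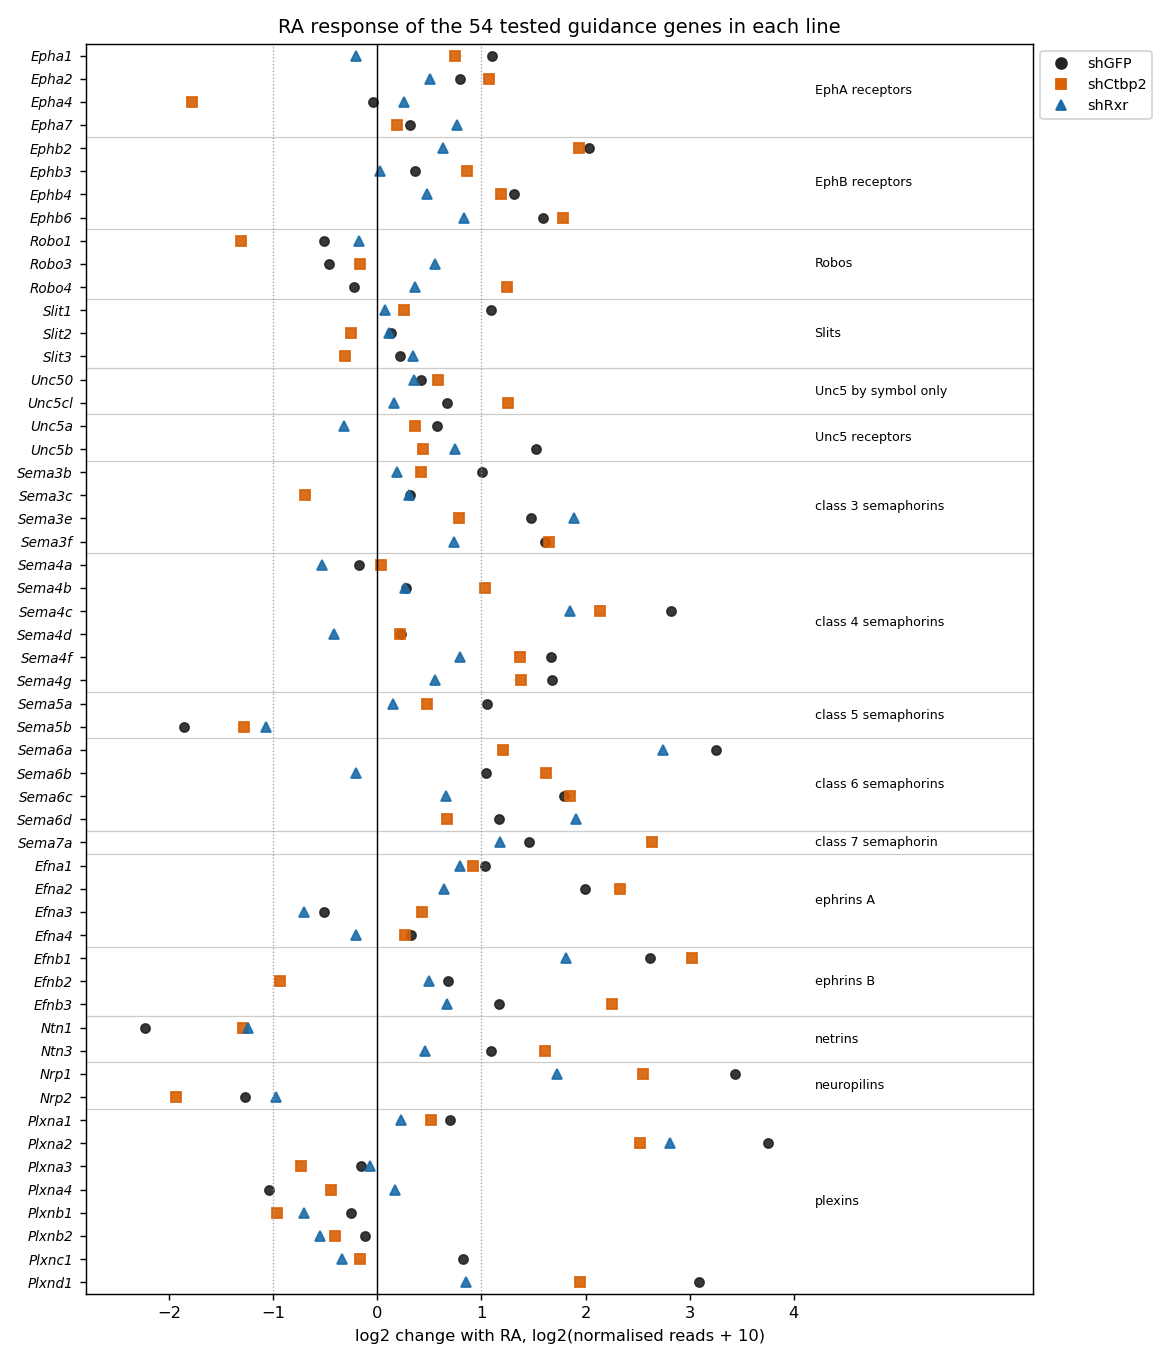
Log2 change with RA of each of the 54 guidance genes tested, by family, in shGFP, shCtbp2 and shRxr; dotted lines mark a 2-fold change. Points of one gene are single differences between 2 libraries with no replicate; Plxna2, Nrp1 and Efnb1 lie far to the right in all lines, and Epha4 and Efnb2 lie near or beyond the left dotted line in shCtbp2 only.

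The limma model called 0 guidance genes for shCtbp2 over both treatments, against 0.146% of all genes tested, and 0 for shRxr, against 0.00811%. At an unadjusted p under 0.05 there were 1 higher and 8 lower for shCtbp2, against 8.85% of all genes in either direction, and 2 and 3 for shRxr, against 1.23%, and the voom form of limma called 0 for either. Nearest to a call was Plxna2 in shCtbp2 (log2 difference -1.81, adjusted p = 0.086), followed by Nrp2 (-1.37, adjusted p = 0.16). Plxna2 was the 1 guidance gene called lower in shCtbp2 when libraries were rescaled by median of ratios or by upper quartile. The count for shCtbp2 also depends on the libraries kept: without the shRxr line 4 genes were called lower. The share of all genes called is not given for that fit or for the 2 rescalings. These counts are therefore no result about the guidance genes.

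The comparisons of the knock-down lines with shGFP below share the shGFP libraries, so the lines are not independent of each other. Untreated, 0 guidance genes were at least 2-fold higher in shCtbp2 and 3 lower, against 1.39% and 2.34% of all genes tested: Plxna2 (-1.20), Nrp2 (-1.04) and Sema5a (-1.01). In untreated shRxr it was 0 and 0, against 0.389% and 0.0649%. With RA, shCtbp2 had 2 higher (Robo4, 1.53, and Ephb3, 1.05) and 11 lower, against 3.18% and 14.8%; the lowest were Plxna2 (-2.43), Efnb2 (-2.13), Sema6a (-2.13) and Nrp2 (-1.70). The 11 are 20.4% of the 54, not far from the share of all genes before a GC correction. With that correction shCtbp2 in RA had 1 higher and 10 lower, against 2.14% and 9.84% of all genes. The guidance genes' median log2 difference moved from -0.34 to -0.65, and that of all genes from -0.19 to -0.18. With RA, shRxr had 2 higher (Plxna4, 1.48, and Epha7, 1.06) and 9 lower, against 3.74% and 2.62%; the lowest were Epha1 (-1.63), Plxnd1 (-1.53), Nrp1 (-1.32) and Unc5b (-1.23). With the GC correction shRxr had 4 higher and 3 lower, against 1.44% and 1.89% of all genes. Epha1, Plxnd1 and Nrp1 then stood at -1.42, -1.25 and -1.49, Unc5b at -0.96, Plxna4 at 1.62 and Epha7 at 0.67.

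The difference in RA response, taken as the line's log2 change less the one seen in shGFP, was 1 or more above 0 for 3 genes in shCtbp2 and 1 or more below for 6, against 2.72% and 12.4% of all genes tested. Sema6a (-2.04), Epha4 (-1.74), Efnb2 (-1.61) and Plxna2 (-1.23) were lowest, and with the GC correction they were -1.84, -1.39, -1.88 and -1.12. Robo4 (1.47), Sema7a (1.18) and Efnb3 (1.08) were highest, but with the correction 1.03, 0.69 and 0.62. Epha4 and Efnb2 were lower with RA in shCtbp2 while shGFP was level or higher.

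In shRxr the counts were 2 above and 10 below, against 5.6% and 4.47%. Plxnd1 (-2.24), Nrp1 (-1.70), Ephb2 (-1.40) and Efna2 (-1.35) were lowest, and remained at or below -1 with the GC correction (-1.90, -1.92, -1.13 and -1.03). Plxna4 (1.21) and Robo3 (1.01) were highest (1.38 and 1.32 with the correction). Nrp1 and Plxnd1 thus responded less in shRxr than in shGFP with and without the GC correction, and the shRxr line still had 4.02-fold more Nrp1 with RA. The weaker response was not particular to shRxr. In shCtbp2 the difference from shGFP was -0.89 for Nrp1 and -1.15 for Plxnd1 (-0.38 and -1.67 with the correction). Both lines share the shGFP libraries, where untreated Plxnd1 had 4 reads. None of these differences has a replicate.

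Genes that work with the guidance families were taken from 2 lists. Of 20 tested co-receptors, alternative ligands and processing enzymes, RA raised 6 (30%, against 10.8% of all genes tested) and lowered 0 (median log2 change 0.50). The lists were chosen with earlier results of these data known. The expression minimum also favours genes that rise: Ntng2, at 12.9, 8.27 and 15.1 untreated, passed it through its RA libraries. The share is therefore a description and not evidence about the list. Flrt3, a membrane protein that binds Unc5 and Robo receptors, rose from 74.1, 63.7 and 48.5 to 439.9, 215 and 255 (2.07, adjusted p = 0.0005, limma), and Rgma, a ligand of the netrin receptor neogenin, from 67.7, 135 and 55.2 to 481, 289 and 166 (1.71, adjusted p = 0.0039). The others were Gpc1 (1.57), Ntng2 (1.21), Dag1 (1.16), which encodes a Slit-binding matrix receptor, and Flrt1 (1.13). Of 57 tested intracellular effectors, 8 rose (14%) and 3 fell (5.26%; median 0.17). These shares lie near the 10.8% and 4.63% of all genes and are no result about the effectors as a list. Among the called effectors, Chn2, a Rac inactivator, rose by 2.01, Farp1, a plexin-associated exchange factor, by 1.50, Rnd2 by 1.32, Abl1, the kinase downstream of Robo, by 1.30, and Srgap1, a Slit-Robo GTPase activator, by 1.29. Rnd3 (-1.72), Enah (-1.25), an actin regulator, and Crmp1 (-0.94), a mediator of class 3 semaphorin signals, fell.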

How the data were processed

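RNA of 6 F9 libraries, 1 per line and treatment, was prepared with TruSeq RNA reagents for a HiSeq instrument, per the labels' protocols. The authors used TopHat 1.4, the mm9 genome and HTSeq, per the submitters' processing notes, without a stated counting mode or strand setting in those notes. Values were deposited on a log2 scale, which the authors made from reads per 10000000 in genes plus 1, as read from the values: unlogged, each library sums to 10000000, and 100% of values are whole reads within 0.01 of a read. Because the table is on a log2 scale, limma trend (limma 3.58.1, R 4.3.3) on log2(value + 10) was the main test, with line and treatment as terms, 2 residual and 11.2 prior degrees of freedom, and Benjamini-Hochberg adjustment over the 12332 genes with a mean of at least 20. Single-library folds have 95% Clopper-Pearson intervals of the reads. Exon lengths and GC content come from GENCODE vM21 by gene identifier and cover 69 of the 70 genes and 98.4% of genes tested. Promoters are RefSeq's. Named with values were all called genes, up to 5 highest and lowest responders per line, up to 4 per comparison with shGFP, the most abundant of each family, and small families. The genes and lists were chosen with earlier results of these data known. Alternatives were other pseudocounts, scalings and minimums, a GC correction, voom, and leaving out each library or line. Tables and plots were made in Python 3.11.15 (pandas 2.3.3, numpy 2.4.6, scipy 1.17.1, matplotlib 3.10.9).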

Additional observations from a re-analysis of the deposited data

Results flagged for a closer look

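Robo4 moved in opposite directions with RA in 2 lines. It stood at 469 untreated and 402 in RA in shGFP and at 491 and 1184 in shCtbp2, so the RA response of shCtbp2 minus that of shGFP was 1.47 on the log2 scale, and 1.03 with the GC correction. With 1 library per group the difference was not tested.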

How the results depend on the processing

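The 23 genes called for RA kept their direction in all 384 combinations of gene and alternative. Where a library or line was left out this was fixed in advance, since all 23 moved the same way in each line. Leaving out 1 library gave the same log2 change as leaving out its line, because the line term then fits the line's other library exactly. In 288 combinations the genes also kept the call and in 96 they lost it. Of the 23, 19 were called under every alternative that kept all libraries and tested the gene, and 6 under every alternative. Genes with a mean under 100 were not tested at the minimum of 100, so a missing test there does not count as a lost call. Leaving out a library gave 6 to 23 raised and 0 to 3 lowered genes. Without the shGFP line there were 6 raised and 0 lowered, and without the shCtbp2 line 8 raised. A mean of at least 100 gave 13 raised, and the GC correction 5 lowered. For shCtbp2 over both treatments, the lower count without the shRxr line was 4, and median-of-ratios and upper-quartile scaling each gave 1 lower. The share of all genes called is not given for the alternatives in this paragraph, so their counts are no result about the guidance genes. Where 1 library of a line was left, it added no spread of its own, and a comparison of that line assumes that it varies like the others.

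Beside each count below stands the share of all genes that passed the same limit under the same alternative. With the GC correction the counts at 2-fold were 17 higher (12%) for RA in shGFP, 12 higher (9.56%) and 8 lower (8.95%) in shCtbp2, 1 higher (1.39%) for shCtbp2 untreated and 1 higher (2.14%) in RA, and 4 higher (1.44%) and 3 lower (1.89%) for shRxr in RA. The RA response then differed by 1 or more for 1 higher (1.58%) and 10 lower (7.2%) in shCtbp2 and 4 higher (1.98%) and 6 lower (2.88%) in shRxr. A pseudocount of 50 gave 14 higher (8.51%) in shGFP and 1 lower (0.649%) in shRxr with RA, 1 lower (0.365%) for shCtbp2 untreated, 5 lower (8.64%) for shCtbp2 in RA, 0 higher (1.89%) and 4 lower (1.16%) for shRxr in RA, 1 higher (1.18%) for the response of shCtbp2, and 0 higher (3.08%) and 5 lower (1.79%) for that of shRxr. A pseudocount of 1 gave 2 higher (2.08%) and 6 lower (4.31%) for shCtbp2 untreated, 2 higher (1.09%) for shRxr untreated and 4 higher (4.93%) for shRxr in RA. A mean of at least 100, which leaves fewer genes, gave 14 higher (9.81%) in shGFP, 6 lower (14.4%) for shCtbp2 in RA, 0 higher (3.67%) for shRxr in RA, and 0 higher (5.52%) and 5 lower (2.95%) for the response of shRxr. Median-of-ratios scaling gave 1 higher (1.48%) for shCtbp2 untreated, 4 higher (4.83%) in RA, 5 higher (4.21%) for its response and 1 higher (5.42%) for the response of shRxr. The cause of these shifts was not tested. The model for RA is paired by line, since line enters as a term beside treatment.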
